A study of Mus musculus with 13 samples.

Results

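The genes described here are 10 genes of glycolysis and lactate transport: the hexokinases Hk1 and Hk2, the phosphofructokinase Pfkp and its regulator Pfkfb3, the pyruvate kinase Pkm, the lactate dehydrogenase subunits Ldha and Ldhb, and the monocarboxylate transporters Slc16a1, Slc16a3 and Slc16a7. They were picked by name from the deposited gene annotation by a rule that uses no measured value, though with earlier results of these data known, so the share of them that was called is a description. They are 10 of the 55401 genes in the count table, and all 10 passed the filter on low counts that left 14985 genes for testing.

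Bulk RNA sequencing was run on snap-frozen brain hemispheres of 13 male mice, 1 library per mouse, in the cuprizone model of demyelination and recovery. The 5 control (CTL) mice ate normal chow for 6 weeks. The 4 cuprizone (CPZ) mice ate chow with 0.3% cuprizone, a copper chelator that kills mature oligodendrocytes, and were collected at week 4. The 4 recovery (RCV) mice had the same cuprizone chow until week 4, were put back on normal chow, and were collected 2 weeks later at week 6. The mice were C57BL/6J, aged 6 to 8 weeks in the labels and about 10 weeks in the study's methods. The CPZ mice were therefore collected 2 weeks earlier in the experiment than the CTL mice and the RCV mice. This gap cannot be told apart from the diet in CPZ against CTL or in CPZ against RCV. RCV replicates 3 and 4 stood apart in tissue content. Their CPM summed over 5 choroid plexus markers was 12.1 and 14.1, against 415 to 2733 in the other 11 libraries. CPM is the count scaled to the library total of the tested genes, adjusted by the TMM method.

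Glycolysis splits glucose into pyruvate, which either enters mitochondria or is turned into lactate by lactate dehydrogenase. In brain, glia are thought to release lactate through monocarboxylate transporters for use by neurons and axons, and oligodendrocytes are among the cells known to supply it. The transporters differ in their usual place: Slc16a1 (MCT1) is known from oligodendrocytes and endothelium, Slc16a7 (MCT2) from neurons, and Slc16a3 (MCT4) from glycolytic cells that export lactate, including astrocytes.

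At the end of cuprizone feeding, 4 of the 10 genes were higher in CPZ than in CTL: Hk2 by 4.63-fold, Slc16a3 by 4.05-fold, Pfkfb3 by 1.55-fold and Slc16a1 by 1.26-fold. No gene of the 10 was called lower. The enzymes that carry most of the mRNA of the list, namely Pkm, Ldhb, Ldha, Pfkp and Hk1, were not called, and their fitted folds lay between 0.906 and 1.07. After 2 weeks on normal chow, the test called none of the 10 against CTL. A call is an adjusted p below 0.05 in edgeR's quasi-likelihood test, adjusted over all 14985 genes.

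The background of calls was wide in CPZ against CTL. Of all genes tested, 10.2% were called, 7.66% higher and 2.50% lower in CPZ. The 4 genes called, all higher, are 40 percent of the 10. The median log2 fold change of the 10 was 0.12, against -0.02 over all genes tested. For these 4 genes every CPZ library was above every CTL library, a pattern held by 8.25% of all genes tested.

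The promoter stretches of Hk2 and Slc16a3, the genes with the largest changes of the list, are shown here with that of Ldha, which was not called, as a contrast. Each is the 250 bases before a RefSeq start of the gene (GRCm38.p6, the assembly that mm10 names), written 5′ to 3′ on the strand of the gene. Capitals mark ACGTG and GCGTG on either strand, the core letters of the hypoxia response element.
Hk2 (chr6:82774455-82774704, minus strand): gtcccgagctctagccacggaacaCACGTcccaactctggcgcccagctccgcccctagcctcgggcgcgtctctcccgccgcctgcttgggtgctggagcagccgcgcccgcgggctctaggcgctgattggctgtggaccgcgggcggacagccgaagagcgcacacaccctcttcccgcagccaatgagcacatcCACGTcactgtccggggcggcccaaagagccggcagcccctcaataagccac
Slc16a3 (chr11:120948817-120949066, plus strand): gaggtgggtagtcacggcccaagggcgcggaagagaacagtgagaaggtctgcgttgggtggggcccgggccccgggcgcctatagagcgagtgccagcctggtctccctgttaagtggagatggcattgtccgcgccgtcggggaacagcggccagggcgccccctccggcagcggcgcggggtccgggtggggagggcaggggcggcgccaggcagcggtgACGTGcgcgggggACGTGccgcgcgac
Ldha (chr7:46845554-46845803, plus strand): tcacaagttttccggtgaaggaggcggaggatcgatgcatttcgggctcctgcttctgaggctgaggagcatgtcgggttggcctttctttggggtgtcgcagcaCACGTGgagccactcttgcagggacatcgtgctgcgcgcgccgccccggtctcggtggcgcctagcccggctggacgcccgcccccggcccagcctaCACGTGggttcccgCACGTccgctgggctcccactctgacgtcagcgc

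The Hk2 and Slc16a3 stretches each held 2 matches of ACGTG and none of GCGTG. The Ldha stretch held 5 matches of ACGTG, where each of its 2 palindromes CACGTG counts on both strands. A second RefSeq start of Ldha, with its stretch at chr7:46846832-46847081, held 0 matches of ACGTG and 1 of GCGTG. The printed Slc16a3 stretch and both Ldha stretches lie inside the gene spans of GENCODE given below, which begin further upstream. Among all 32851 promoter stretches of this length, 16.6% held ACGTG, 28.2% held GCGTG and 38.6% held either. RefSeq stretches were matched for 9 of the 10 genes, all but Slc16a7. These matches describe letters, and called and uncalled genes both held them.

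Of the hexokinases Hk1 and Hk2, Hk2 rose. Hexokinases trap glucose in the cell by phosphorylating it, and Hk1 is the main form of adult brain while Hk2 is known as an inducible form. Hk2 (ENSMUSG00000000628.10) lies at chr6:82725025-82774454 on the minus strand of mm10. In CPM, its 5 CTL libraries held 4.08, 5.40, 5.53, 4.43 and 4.40. The 4 CPZ libraries held 27.8, 31.1, 11.4 and 18.1, and the 4 RCV libraries held 8.21, 9.23, 8.28 and 8.02. The 3 groups did not overlap, with CTL lowest, RCV in the middle and CPZ highest, and the CPZ libraries spread the most.

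Hk2 rose in CPZ against CTL by 2.21 on the log2 scale (SE 0.244, adjusted p = 1.8e-05, edgeR quasi-likelihood). These CPM rest on 24 to 36 counts per CTL library, 82 to 256 per CPZ library and 37 to 57 per RCV library. With any 1 library left out, the log2 fold change stayed between 1.99 and 2.43.

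Hk1 (ENSMUSG00000037012.18, chr10:62268855-62379908, minus strand) was far more abundant. Its CPM ranged from 334 to 391 in CTL, 310 to 363 in CPZ and 325 to 387 in RCV, so the groups overlapped. Its log2 fold change in CPZ against CTL was -0.14, with an unadjusted p of 0.0489 and an adjusted p of 0.223 in edgeR, which is not a call.

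TPM, a level scaled for transcript length as well as library total, allows genes of different length to be compared and gave the balance between the 2 hexokinases. Hk2 made up 1.10% ± 0.236 (SD, n = 5) of the summed TPM of Hk1 and Hk2 in CTL. The share was 6.55% ± 2.62 (SD, n = 4) in CPZ, whereas RCV held 2.68% ± 0.494 (SD, n = 4). The ranges were 0.842 to 1.40%, 3.84 to 9.12% and 2.27 to 3.39%, and none of them overlapped. Hk1 thus remained the main hexokinase mRNA in all 13 libraries. On CPM in place of TPM the ranges, 1.06 to 1.59% in CTL, 3.54 to 8.70% in CPZ and 2.09 to 2.77% in RCV, did not overlap either.

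Pfkp and Pfkfb3 act at the step that commits glucose to glycolysis. Pfkp is a subunit of phosphofructokinase, and Pfkfb3 makes fructose-2,6-bisphosphate, its strong activator. Pfkfb3 (ENSMUSG00000026773.19, chr2:11471433-11554077, minus strand) held 29.6, 43.5, 40.4, 38.5 and 33.4 CPM in the CTL libraries. It held 62.8, 58.8, 53.4 and 55.0 CPM in CPZ, and 29.9, 45.0, 41.2 and 40.5 CPM in RCV. Every CPZ library lay above every CTL and RCV library, whereas CTL and RCV shared their range.

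Pfkfb3 rose in CPZ against CTL by 0.63 on the log2 scale (SE 0.118, adjusted p = 0.00169, edgeR). Pfkp (ENSMUSG00000021196.14, chr13:6579768-6648777, minus strand), the enzyme subunit itself, ranged from 306 to 345 CPM in CTL, 314 to 339 in CPZ and 307 to 338 in RCV. Its log2 fold change was -0.01 with a 95% interval from -0.12 to 0.10, so a change as large as that of Pfkfb3 lay outside the interval. Exons of Pfkp share bases with Pitrm1 on the opposite strand, which held 3103 counts over all libraries, and whether the counting used strand is not given in the sources used here.

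Pkm, Ldha and Ldhb, the enzymes that make pyruvate and interconvert it with lactate, were the most abundant genes of the list. Pkm (ENSMUSG00000032294.17, chr9:59656368-59679375, plus strand) ranged from 995 to 1074 CPM in CTL, 1031 to 1091 in CPZ and 1019 to 1084 in RCV. Its log2 fold change in CPZ against CTL was 0.02, with a 95% interval from -0.08 to 0.12. Gene totals do not separate the M1 and M2 forms of Pkm, which come from 1 gene by splicing.

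Ldha (ENSMUSG00000063229.15, chr7:46841475-46855627, plus strand) encodes the subunit that favours lactate formation. It ranged from 173 to 213 CPM in CTL, 181 to 205 in CPZ and 152 to 199.7 in RCV. Ldhb (ENSMUSG00000030246.12, chr6:142490249-142507957, minus strand) encodes the subunit that favours lactate use, and ranged from 344 to 413, 373 to 421 and 331 to 408 CPM. The groups overlapped for both genes.

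The log2 fold changes in CPZ against CTL were 0.05 for Ldha (95% interval -0.13 to 0.22) and 0.10 for Ldhb (95% interval -0.05 to 0.25). Ldha made up 28.9% ± 2.86 (SD, n = 5) of the summed TPM of both subunits in CTL. CPZ held 28.2% ± 0.987 (SD, n = 4) and RCV 28.3% ± 3.72 (SD, n = 4). The difference of -0.716 percentage points between CPZ and CTL was smaller than the spread within CTL. Pkm, Ldha and Ldhb had counts that were not whole numbers in all 13 libraries, as happens where reads are shared with near-identical copies, and Pkm shares exonic bases with Gm49759 on its own strand, so their levels are uncertain to that extent.

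**Figure D1:**
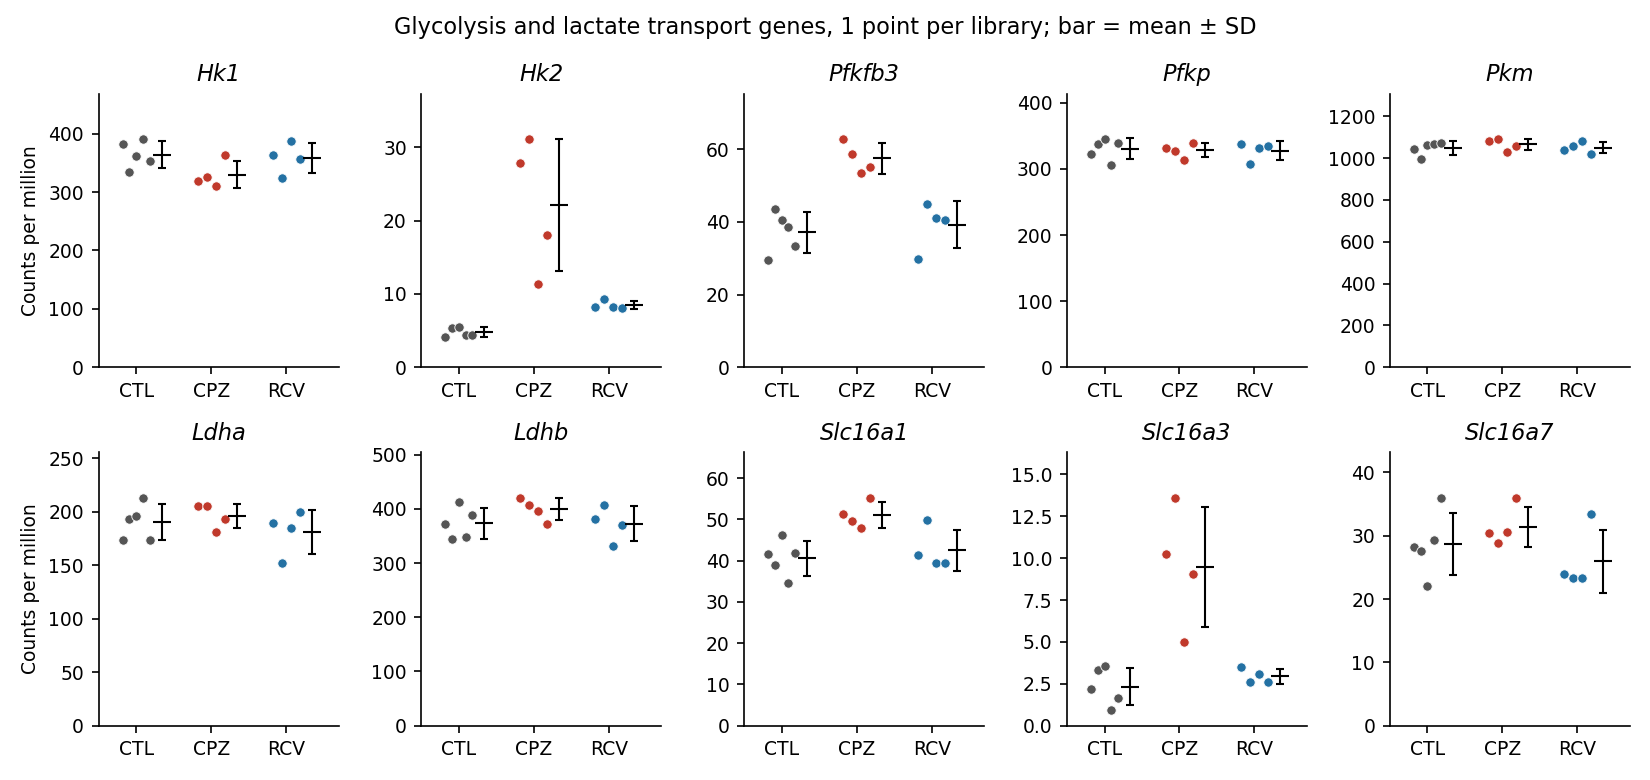
CPM of the 10 genes, 1 panel per gene with its own axis from 0, in 5 CTL, 4 CPZ and 4 RCV libraries; points are libraries and the bar is the mean ± SD. The 4 CPZ libraries sit above all CTL libraries for Hk2, Pfkfb3, Slc16a1 and Slc16a3, and the groups overlap for the other 6 genes.

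The lactate transporters split by gene. Slc16a3 (ENSMUSG00000025161.16, chr11:120948480-120960868, plus strand) was low in controls, with 2.17, 3.30, 3.53, 0.917 and 1.65 CPM in the 5 CTL libraries. It held 10.2, 13.6, 4.99 and 9.04 CPM in the CPZ libraries, and 3.52, 2.59, 3.08 and 2.60 CPM in the RCV libraries. All CPZ libraries were above the highest CTL library, and the RCV libraries lay within the range of CTL.

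Slc16a3 rose in CPZ against CTL by 2.02 on the log2 scale (SE 0.317, adjusted p = 0.000385, edgeR). Its precision is set by low counts, with 6 to 23 per CTL library, 36 to 112 per CPZ library and 12 to 24 per RCV library. The log2 fold change stayed between 1.79 and 2.23 with any 1 library left out.

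Slc16a1 (ENSMUSG00000032902.1, chr3:104638668-104658462, plus strand) held 41.6, 38.9, 46.1, 34.6 and 41.8 CPM in CTL. It held 51.3, 49.6, 48.0 and 55.3 CPM in CPZ, and 41.3, 49.7, 39.5 and 39.5 CPM in RCV. The CPZ libraries were above all CTL libraries, by a narrow margin, while RCV replicate 2 reached the level of the CPZ libraries.

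Slc16a1 rose in CPZ against CTL by 0.33 on the log2 scale (SE 0.0883, adjusted p = 0.0226, edgeR). This was the weakest call of the 4. It was lost without CTL replicate 2 (adjusted p = 0.0516), without CPZ replicate 1 (adjusted p = 0.0543) and without CPZ replicate 4 (adjusted p = 0.0792), and in limma on log2(TPM + 1) (adjusted p = 0.111). The direction was the same in all of these.

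Slc16a7 (ENSMUSG00000020102.15, chr10:125219270-125389465, minus strand) ranged from 22.1 to 35.9 CPM in CTL and from 28.8 to 36.0 in CPZ. The log2 fold change was 0.14 with a 95% interval from -0.14 to 0.41, and the groups overlapped. In RCV it held 23.9, 23.3, 23.3 and 33.4 CPM, the last in RCV replicate 4, which was also the shallowest library.

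Within the summed TPM of the 3 transporters, Slc16a3 made up 8.45% ± 2.51 (SD, n = 5) in CTL and 22.3% ± 6.55 (SD, n = 4) in CPZ. Its ranges, 5.93 to 11.7% and 17.7 to 31.6%, did not overlap. The RCV share of 12.3% ± 3.01 (SD, n = 4) overlapped that of CTL. On CPM in place of TPM the Slc16a3 share was 3.23% ± 1.56 (SD, n = 5) in CTL and 10.2% ± 3.71 (SD, n = 4) in CPZ, a rise of 6.99 percentage points in place of 13.8, and these ranges did not overlap either. Slc16a1 stayed the largest of the 3 in group mean, at 56.4% ± 6.34 (SD, n = 5) in CTL, 52.0% ± 7.23 (SD, n = 4) in CPZ, and for RCV 61.2% ± 8.09 (SD, n = 4), and these ranges overlapped.

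**Figure D2:**
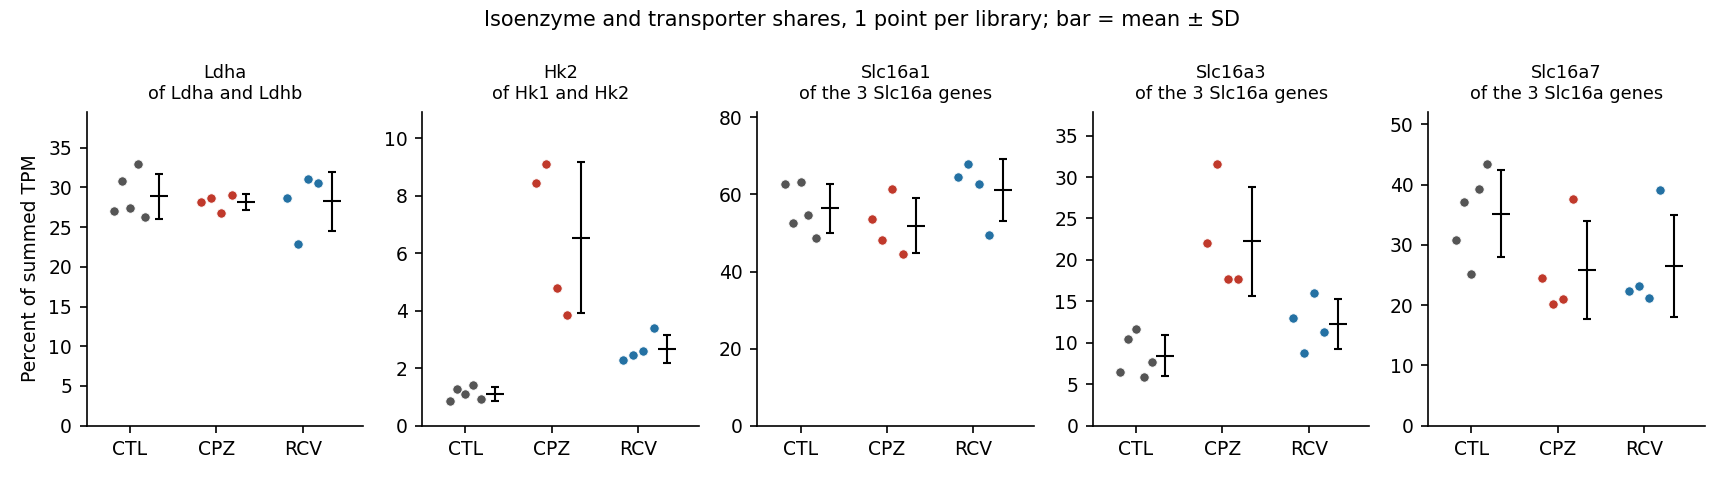
Share of each gene in the summed TPM of its isoenzymes or transporters, in percent on axes from 0, with 1 point per library and bars for the mean ± SD. The Hk2 share (CTL 0.842 to 1.40%, CPZ 3.84 to 9.12%) and the Slc16a3 share (CTL 5.93 to 11.7%, CPZ 17.7 to 31.6%) separate CPZ from CTL, whereas the Ldha, Slc16a1 and Slc16a7 shares overlap.

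Levels per transcript length spanned a wide range. In CTL, Pkm was highest at 1055 ± 47.0 TPM (SD, n = 5), followed by Ldhb at 681 ± 54.6 and Ldha at 276 ± 25.6, each clear of its neighbour. Pfkp at 188 ± 6.97 and Hk1 at 187 ± 12.4 TPM did not differ beyond their spread. Slc16a1 at 19.1 ± 1.94, Pfkfb3 at 18.9 ± 4.77 and Slc16a7 at 12.1 ± 3.66 TPM overlapped from neighbour to neighbour, as did the lowest pair, Slc16a3 at 2.91 ± 0.981 and Hk2 at 2.09 ± 0.485 TPM.

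Pfkp and Hk1 overlapped in CPZ too, and by mean TPM the order of the top 5 genes was the same as in CTL. Below them, Pfkfb3 at 31.5 ± 3.60 TPM (SD, n = 4) stood clear of Slc16a1 at 23.5 ± 1.07 in CPZ. Slc16a7 at 12.3 ± 5.94, Hk2 at 11.6 ± 4.77 and Slc16a3 at 10.3 ± 3.56 TPM could not be ordered there. In RCV, Hk1 at 181 ± 12.7 and Pfkp at 180.4 ± 6.01 TPM again overlapped, and the lowest genes were Hk2 at 4.99 ± 1.06 and Slc16a3 at 3.91 ± 0.687 TPM, which also overlapped.

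TPM depends on the transcript length that was assigned to a gene in each library. The ratio of TPM to CPM differed between libraries by up to 2.16-fold for Hk2, 2.11-fold for Slc16a3 and 2.32-fold for Slc16a7, and by at most 1.29-fold for the other 7 genes. Hk2, for instance, held 8.02 TPM in CPZ replicate 3 and 7.05 in CPZ replicate 4, in the reverse order of its CPM. The TPM shares and levels of these 3 genes carry that uncertainty, and the tests rest on counts.

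**Figure D3:**
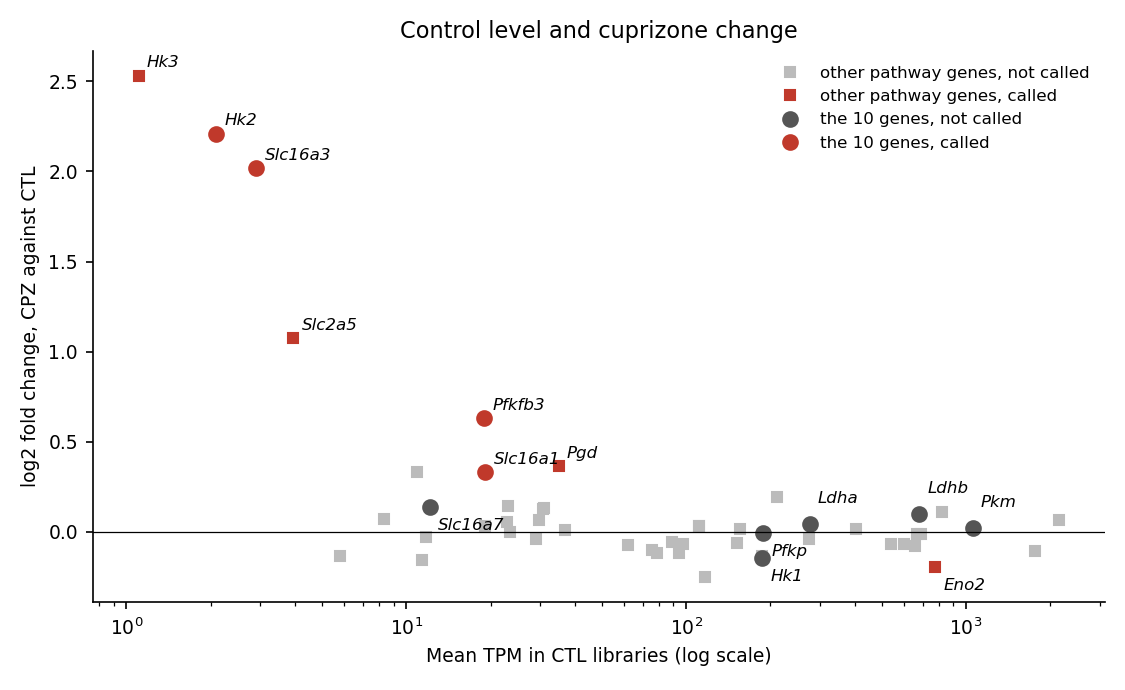
Log2 fold change in CPZ against CTL (vertical axis) against the mean TPM in the 5 CTL libraries (horizontal log axis), for the 10 genes (circles) and 41 other pathway genes (squares), with red for an adjusted p below 0.05. Hk2 and Slc16a3, at 2.09 and 2.91 TPM, show the largest changes of the 10, while Pkm at 1055 TPM and Ldhb at 681 TPM lie close to 0.

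RCV was compared with the same CTL libraries as CPZ. In RCV against CTL, 0.374% of all genes were called by edgeR and 6.20% had an unadjusted p below 0.05. None of the 10 genes was called, by edgeR, by DESeq2 or by limma-voom, and 1 of the 10, Hk2, had an unadjusted p below 0.05. Hk2 was also the 1 gene of the list whose RCV libraries all lay above the CTL libraries, a pattern held by 2.21% of genes tested. Its log2 fold change was 0.82 (SE 0.272, 95% interval 0.24 to 1.40, adjusted p = 0.401, edgeR). When the fit held the RCV and CTL groups only, the adjusted p was 0.0311, and over all alternatives it ranged from 0.0311 to 0.898.

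The other genes that had risen in CPZ gave smaller values in RCV against CTL. The log2 fold change was 0.35 for Slc16a3 (95% interval -0.44 to 1.14), 0.07 for Pfkfb3 (95% interval -0.19 to 0.34) and 0.07 for Slc16a1 (95% interval -0.12 to 0.26). For Slc16a3 the interval is wide, at 12 to 24 counts per RCV library. The lowest value of the list was that of Slc16a7, -0.15, with an adjusted p of 0.977.

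CPZ was also compared directly with RCV, using the same CPZ libraries as before. Here 7.01% of all genes tested were called, 5.13% were called higher in CPZ, and 8.26% had all CPZ libraries above all RCV libraries. Of the 10 genes, 3 were called higher in CPZ, and these 3 were also without overlap. Hk2 differed by 1.39 (SE 0.248, adjusted p = 0.00308), Slc16a3 by 1.67 (SE 0.337, adjusted p = 0.00611) and Pfkfb3 by 0.56 (SE 0.126, adjusted p = 0.0126) on the log2 scale in edgeR.

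These 3 calls were lost when RCV replicates 3 and 4 were both left out, a setting chosen after seeing the data that leaves 2 RCV libraries. The log2 fold changes in CPZ against RCV were then 1.35 for Hk2 (adjusted p = 0.0506), 1.63 for Slc16a3 (adjusted p = 0.0694) and 0.63 for Pfkfb3 (adjusted p = 0.0562). With either library left out alone, all 3 were called.

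Slc16a1 was 0.26 higher in CPZ than in RCV on the log2 scale (SE 0.0941) and was not called, with an adjusted p of 0.124. Without RCV replicate 2, whose Slc16a1 level was the highest of its group, the value was 0.35 and was called (adjusted p = 0.0320). Slc16a7 gave 0.28 (95% interval -0.01 to 0.58, adjusted p = 0.289). The remaining 5 genes lay between -0.12 for Hk1 and 0.11 for Ldha.

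The RCV libraries were placed on the log2-CPM scale between the CTL mean (0) and the CPZ mean (1) of each called gene, as a description. Hk2 lay at 0.386 ± 0.0426 (SD, n = 4), with single libraries from 0.353 to 0.449. Slc16a3 lay at 0.217 ± 0.0996, Pfkfb3 at 0.118 ± 0.399 and Slc16a1 at 0.197 ± 0.474. The spread of the last 2 genes was larger than their distance from CTL, while the 4 Hk2 values lay close together. These SDs cover the RCV libraries alone and leave out the spread of the CTL and CPZ libraries that set 0 and 1. For Hk2, the CPZ libraries ran from 3.55 to 4.97 log2-CPM.

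**Figure D4:**
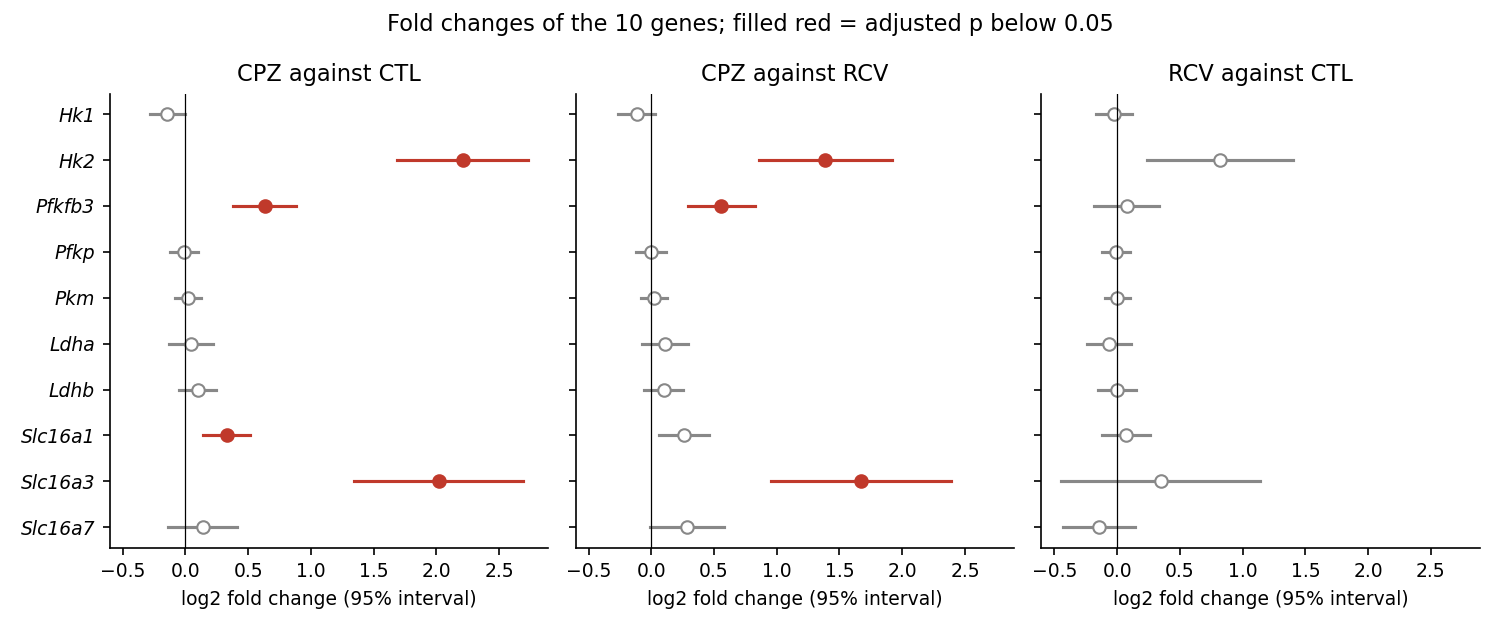
Log2 fold changes of the 10 genes in 3 comparisons, with 95% intervals as bars and filled red points where the adjusted p is below 0.05. In CPZ against CTL 4 genes are red, in CPZ against RCV 3, and in RCV against CTL none, where the Hk2 interval runs from 0.24 to 1.40.

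Other genes of glucose and lactate metabolism were followed as lists by role, 44 genes in all, of which 41 were tested (Pfkfb1, Slc16a8 and Hcar1 did not pass the filter). In CPZ against CTL, 3 were called higher and 1 lower, 9.76 percent of those tested, close to the 10.2% of all genes. Their median log2 fold change was -0.01. In RCV against CTL edgeR called 0 of 41, with 0 at an unadjusted p below 0.05 and 0 called by DESeq2 and by limma-voom. In CPZ against RCV 1 of 41 was called, 2.44 percent of those tested, against 7.01% of all genes.

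Among 3 glucose transporters, 1 was called. Slc2a5, a fructose transporter known from microglia, rose by 1.08 on the log2 scale in CPZ against CTL (SE 0.274, adjusted p = 0.0167, edgeR), though its CPZ range of 3.61 to 12.8 CPM overlapped the CTL range of 3.15 to 4.95. The Slc2a5 call was lost without CPZ replicate 2 (0.71, adjusted p = 0.0889) and in limma-voom (adjusted p = 0.0600). Slc2a3, the neuronal glucose transporter and the most abundant of the group in TPM, gave -0.12 (95% interval -0.26 to 0.02).

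Among 13 other glycolytic enzymes, 1 was called higher and 1 lower. Hk3, a hexokinase known from myeloid cells, rose by 2.53 in CPZ against CTL (SE 0.317, adjusted p = 4.08e-05) and by 1.77 in CPZ against RCV (SE 0.323, adjusted p = 0.00285) on the log2 scale in edgeR. It held 0.900 to 2.15 CPM in CTL, 5.13 to 10.5 in CPZ and 1.15 to 2.82 in RCV. Counts of Hk3 were low, at 6 to 14 per CTL library, 37 to 83 per CPZ library and 6 to 19 per RCV library. Eno2, the neuronal enolase, fell by 0.20 on the log2 scale in CPZ against CTL (SE 0.0490, adjusted p = 0.0150, edgeR), from 780.1 to 822 CPM in CTL to 675 to 736 in CPZ, without overlap. The Eno2 call was lost without CPZ replicate 1 (adjusted p = 0.0856) or CPZ replicate 3 (adjusted p = 0.0630). Gapdh, the most abundant of the group, gave 0.07 (95% interval -0.05 to 0.18).

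In the pentose phosphate branch, 1 of 7 genes was called. Pgd, which makes NADPH, rose by 0.37 on the log2 scale in CPZ against CTL (SE 0.106, adjusted p = 0.0362, edgeR), and Tkt, the most abundant, gave -0.14 (95% interval -0.27 to 0.0034). The Pgd call was lost without any 1 of CTL replicates 1, 2, 3 and 5 and CPZ replicates 1 and 2 (adjusted p from 0.0697 to 0.151). Of the 3 tested genes that set fructose-2,6-bisphosphate beside Pfkfb3, the 3 tested genes of lactate handling and the 12 genes of pyruvate entry into mitochondria, 0 were called in CPZ against CTL by edgeR, DESeq2 or limma-voom. The numbers at an unadjusted p below 0.05 were 1, 0 and 1. The most abundant gene of each gave 0.07 for Pfkfb2, -0.01 for Bsg, the chaperone that carries Slc16a1 and Slc16a3 to the membrane, and 0.20 for Mpc1, a subunit of the mitochondrial pyruvate carrier.

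Markers of some cell types also differed between the groups. In bulk tissue, a change in the number of cells of a type and a change in RNA per cell cannot be told apart. All 10 microglia markers were called higher in CPZ against CTL, from 0.97 for P2ry12 to 3.46 for Tyrobp on the log2 scale (median 2.30). Their summed level was 335 to 396 CPM in CTL, 1112 to 2269 in CPZ and 503 to 690.0 in RCV, and none of the 10 was at 0 in any library. All 10 markers of mature oligodendrocytes were called lower in CPZ, with a median of -1.50 and summed levels of 4378 to 8210 CPM in CTL, 1860 to 3173 in CPZ and 5757 to 9853 in RCV.

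Of 8 astrocyte markers, 4 were called higher in CPZ, led by Gfap with a log2 fold change of 2.43, and their sum was 3647 to 3998 CPM in CTL, 4378 to 5260 in CPZ and 4361 to 4905 in RCV. The 8 neuron markers, present in all libraries at a summed 4647 to 5871 CPM, gave 0 calls in CPZ against CTL by edgeR, DESeq2 or limma-voom and 0 at an unadjusted p below 0.05. The 7 endothelial markers gave 0 calls by the same 3 tools and 1 at an unadjusted p below 0.05. Blood markers, of which 5 of 7 were tested, and the 5 choroid plexus markers gave 0 calls by these tools as well, and 0 at an unadjusted p below 0.05. In CPZ against RCV, 2 of the 5 blood markers were called lower in CPZ, Hbb-bt by -0.91 (adjusted p = 0.0107) and Hba-a2 by -0.59 (adjusted p = 0.0110) on the log2 scale, and all 5 had an unadjusted p below 0.05. In RCV against CTL, 1 of the 7 endothelial markers, Cldn5, was called lower in RCV (-0.68, adjusted p = 0.0263, edgeR), a call lost in limma-voom (adjusted p = 0.0744) and without any 1 of CTL replicates 1, 3, 4 and 5 and RCV replicates 2 and 4. In the same comparison, edgeR called 2 of the 8 astrocyte markers higher in RCV. These were Gfap at 1.80 (adjusted p = 0.000109) and Aqp4 at 0.44 (adjusted p = 0.0384) on the log2 scale. Of the 10 microglia markers, Ctss was called higher (1.24, adjusted p = 0.0284, edgeR). Of these 10, 8 had an unadjusted p below 0.05, against 6.20% of all genes tested. Tmem119 at -0.06 and P2ry12 at 0.01 on the log2 scale did not. The mature oligodendrocyte, neuron, blood and choroid plexus markers gave 0 edgeR calls there. The part of all these markers in the results was not tested.

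Ratios to the microglia markers are given as a description. Per 1000 CPM of the microglia markers, a ratio chosen after the fold changes were seen and not tested, Hk2 held 13.5 ± 1.81 CPM (SD, n = 5) in CTL. It held 12.8 ± 2.23 (SD, n = 4) in CPZ, and RCV had 14.1 ± 1.67 (SD, n = 4). Slc16a3 held 6.51 ± 3.06, 5.61 ± 1.29 and 4.97 ± 1.22 CPM on the same scale. For both genes the ranges of the 3 groups overlapped.

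Pfkfb3 and Slc16a1 had lower ratios to these markers in every CPZ library than in any CTL library. A ratio falls wherever a gene rises less than the marker sum, whose mean was 354 CPM in CTL and 1685 in CPZ. These ratios therefore restate the fold changes above. Pfkfb3 held 105 ± 13.8 CPM per 1000 CPM of these markers in CTL, 36.4 ± 9.56 in CPZ and 65.3 ± 12.9 in RCV. Slc16a1 held 115 ± 16.3, 32.8 ± 10.5 and 70.5 ± 6.80 CPM. Of the other pathway genes, Hk3 held 3.95 ± 1.80, 4.69 ± 0.261 and 3.73 ± 1.08 CPM, and its groups overlapped. Slc2a5 held 10.4 ± 2.32, 4.48 ± 1.49 and 7.28 ± 1.14 CPM, lower in every CPZ library than in any CTL library.

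**Figure D5:**
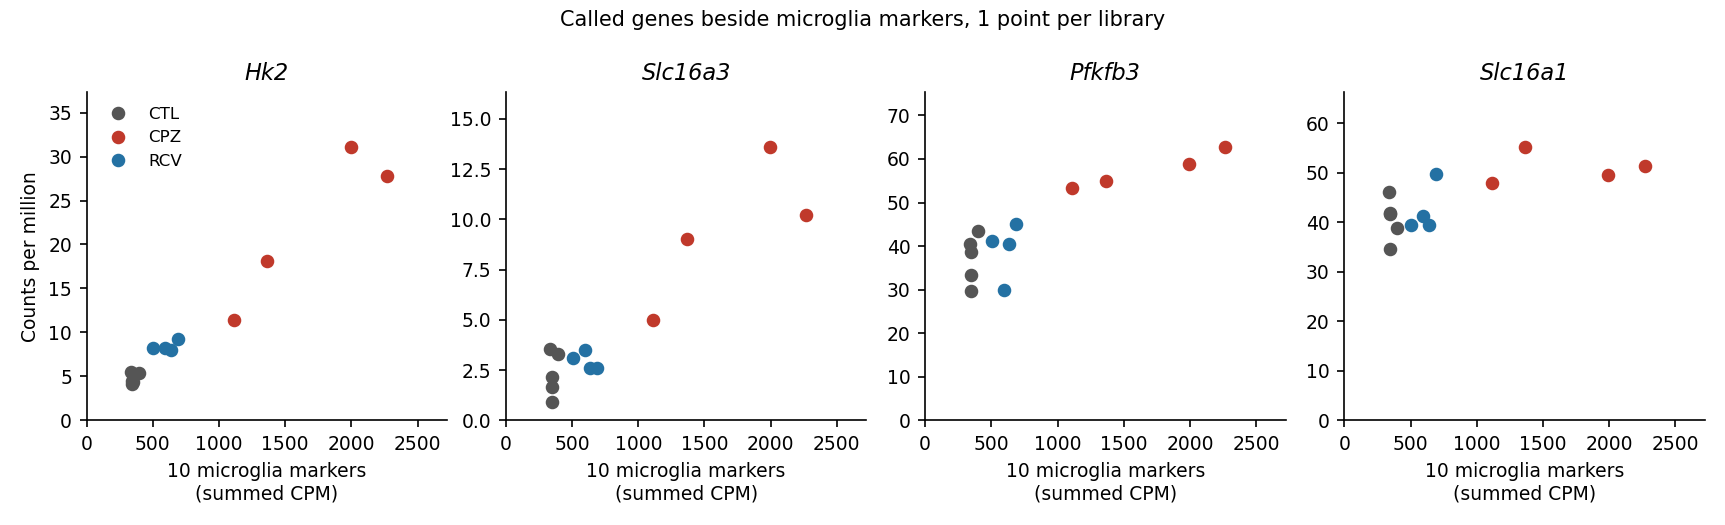
CPM of Hk2, Slc16a3, Pfkfb3 and Slc16a1 (vertical axes from 0) against the summed CPM of 10 microglia markers (horizontal axis from 0), with 1 point per library coloured by group. Hk2 goes from 4.08 to 5.53 CPM at marker sums of 335 to 396 in CTL up to 31.1 CPM among the CPZ libraries, while Slc16a1 stays between 34.6 and 55.3 CPM over the whole range of marker sums.

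The genes most like each called gene were found by the root mean square distance between standardized log2-CPM profiles over the 13 libraries, among the 11092 genes whose mean log2-CPM was 3 or more. For Hk2 these were Unc93b1 (distance 0.143), Inpp5d (0.176) and Csf1r (0.176), the last being the receptor of colony-stimulating factor 1 and a member of the microglia marker list. For Slc16a3 they were Myh9 (0.290), Rnaset2a (0.323) and Rab3il1 (0.344). For Pfkfb3 they were Anxa2 (0.288), Nfkb1 (0.362) and Zfp36l1 (0.376), and for Slc16a1 they were Adamts1 (0.356), Wipf1 (0.414) and Trf (0.415). The nearest profiles of Hk2 were closer than those of the other 3 genes, and these distances are descriptions over the same 13 libraries. Distances between standardized profiles also grow with counting noise and where groups differ less. Slc16a3 held 6 to 23 counts per CTL library, and Slc16a1 rose by 0.33 on the log2 scale in CPZ against CTL. The order of the 4 genes therefore does not rank coexpression.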

How the data were processed

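RNA from 13 mouse brain hemispheres was prepared with the Kapa mRNA HyperPrep Kit and sequenced on a HiSeq2500 by the authors. Their processing notes name STAR, RSEM and mm10, without versions, and the annotation release is not given in the sources used here. The deposited tables hold estimated counts per gene, which are RSEM sums not scaled for depth, and TPM, which the authors scaled for transcript length and depth. Of 55493 identifiers, 92 were spike-ins with 0 counts, and 54349 matched GENCODE M21, which gave the gene coordinates. Ldhb was matched without its version.

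Total counts were 4605100 to 8197289 per library. Groups follow the treatment field of the labels. For RCV this field reads Recovery, while every library of that group is named Veh. The study's methods do not explain this name. Whether it marks a treatment beyond the change of chow was not tested, and it bears on each comparison with RCV. The labels and Methods give 4, 3 and 3 mice, fewer than the 5, 4 and 4 libraries. A figure legend of the study counts 5 control, 4 CPZ and 4 recovery samples, all with bulk RNA sequencing. Replicate libraries differed beyond sampling noise (chi-square per gene 4.23 to 16.3), and all were kept. The libraries are taken as 1 mouse each.

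Counts were rounded to whole numbers, filtered with filterByExpr and fitted together in edgeR 4.0.16 (R 4.3.3) with TMM scaling and the robust quasi-likelihood F test, with Benjamini-Hochberg adjustment over 14985 genes and a call at an adjusted p below 0.05. SE is the absolute log2 fold change divided by the square root of F, and 95% intervals use the t quantile at the degrees of freedom of the fit. Log2-CPM used a prior count of 2. Error bars cover the spread between mice.

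The alternatives were DESeq2 1.42.0, its size factors in edgeR, limma 3.58.1 with voom, limma on log2(TPM + 1) and log2(TPM + 0.1), other filters, a fit of only the groups compared, a replicate block, and leaving out each library. Leaving out RCV replicates 3 and 4 together was added after seeing the data. Figures used matplotlib 3.10.9.

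The members, the pathway and marker lists and the tests were chosen with earlier results of these data known. Named are all 10 members, the pathway genes called in CPZ against CTL, the most abundant pathway gene of each role by mean TPM, markers beside a result, and the 3 nearest profiles of each called member. Promoter sequences came from RefSeq.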

Additional observations from a re-analysis of the deposited data

Results flagged for a closer look

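In 57 groups of 4 or 5 libraries, the highest and lowest library were set against the others of the group, and 3 stood apart by Dixon's criterion. Chance alone gives about 1 such library in 20 groups. Slc16a7 in RCV replicate 4 was at 33.4 CPM, against 23.3 to 23.9 in the other RCV libraries. Its share of the summed TPM of the 3 transporters was 39.1% in the same library, against 21.2 to 23.2% in the others, a value not independent of the first. RCV replicate 4 was the shallowest library, with 4605100 counts. Pgd in CTL replicate 4 was at 37.9 CPM, against 32.7 to 32.9 in the other CTL libraries. Without that library the log2 fold change of Pgd in CPZ against CTL was 0.41 (adjusted p = 0.0250 in edgeR).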

How the results depend on the processing

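The log2 fold changes of Hk2, Slc16a3 and Pfkfb3 in CPZ against CTL stayed called wherever they were fitted. With at least 10 counts in every library Slc16a3 was filtered out. Calls of Slc16a1 were lost on TPM (adjusted p 0.111, 0.111 and 0.162 in limma).

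On log2(TPM + 1) without a filter, 992 genes were called in CPZ against CTL. Genes called in RCV against CTL numbered 131 by DESeq2, 12 by voom, 22 on log2(TPM + 1) without a filter and 20 with at least 10 counts. Genes called in CPZ against RCV numbered 599, 508 and 487 on log2(TPM + 1), log2(TPM + 0.1) and log2(TPM + 1) without a filter. On the last 2, 1 of the 10 genes was called there (Hk2 adjusted p 0.0511 and 0.0691, Pfkfb3 0.0502 and 0.0807). Fitting only RCV and CTL called 1 of the 10. Other pathway genes called in CPZ against CTL numbered 2 on the 3 TPM settings, and in CPZ against RCV 2 by DESeq2 and 0 with at least 10 counts. The Slc16a3 share rose by 6.99 percentage points on CPM in place of 13.8 on TPM.

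Signs turned only for uncalled values near 0. Pfkp in CPZ against CTL was 0.0092 without a filter, 0.0049 with at least 10 counts and 0.0058 with the 2 groups alone, and in CPZ against RCV -0.00022 with DESeq2 size factors. On the 3 TPM settings Pkm was -0.021 in CPZ against CTL and -0.022 in RCV against CTL, where it was also -0.0088 without a filter and -0.0017 with the 2 groups alone. Slc16a7 in CPZ against CTL was -0.036, -0.042 and -0.036 on TPM. Ldhb in RCV against CTL was 0.0016 with DESeq2 size factors, 0.0021 by DESeq2 and 0.00045 with at least 10 counts. The causes were not tested.

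The replicate numbers did not pair the mice (correlations of same-numbered libraries -0.199 to 0.136, none best with its own number). With a replicate block, 1172 genes were called in CPZ against CTL, 42 in RCV against CTL and 755 in CPZ against RCV, 2 other pathway genes were called in CPZ against CTL, Slc16a1 lost its call (adjusted p 0.0790), and Pfkp in CPZ against CTL was 0.00071 and Ldhb in RCV against CTL 0.014.

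With single libraries left out, 3 to 4 of the 10 genes were called in CPZ against CTL, 0 in RCV against CTL and 3 to 4 in CPZ against RCV. Other pathway genes called were 2 to 5 in CPZ against CTL and 1 to 2 in CPZ against RCV. Genes called were 21 to 87 in RCV against CTL (26, 29, 30 and 29 without CTL replicates 1, 3, 4 and 5, 87 without CPZ replicate 3, 33 and 21 without RCV replicates 1 and 2) and 632 to 1170 in CPZ against RCV (632 and 693 without CPZ replicates 1 and 2). Log2 fold changes that changed sign ranged from -0.036 to 0.018 for Pfkp in CPZ against CTL and from -0.031 to 0.030 in CPZ against RCV. In RCV against CTL they ranged from -0.066 to 0.018 for Hk1, -0.0042 to 0.19 for Pfkfb3, -0.037 to 0.020 for Pfkp, -0.017 to 0.010 for Pkm, -0.12 to 0.0096 for Ldha, -0.047 to 0.051 for Ldhb and -0.016 to 0.12 for Slc16a1.

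Leaving out RCV replicates 3 and 4 together, a setting chosen after seeing the data, gave 34 genes called in RCV against CTL and 556 in CPZ against RCV. In CPZ against RCV it called 0 of the 10 genes by edgeR, with 4 at an unadjusted p below 0.05, and 2 other pathway genes. Pkm and Ldhb in RCV against CTL were then -0.0022 and 0.079. With 2 RCV libraries in place of 4, fewer samples enter this fit.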
